A study of Mus musculus with 28 samples.

Results

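Ovaries of *Chek2*-/- female mice collected 6 h after 0.5 Gy of ionizing radiation (IR) were compared with ovaries of non-irradiated (0 Gy, sham) *Chek2*-/- females, to find out which part of the transcriptional response to radiation is left without CHEK2. The comparison took in the 12 bulk RNA-seq libraries labelled as *Chek2*-/-, 6 irradiated and 6 non-irradiated, of 24 bulk libraries and 28 samples in the series. It covered all 44674 genes of the count table, of which 26790 had enough counts to be tested, and it was made again with replicate 6 of both groups left out, which kept 10 libraries. The other 12 bulk libraries were wild-type ovaries with and without the same dose, and 4 single-cell libraries held 1 sample per genotype and dose. Females of both arms carried the *Chek2*tm1b(EUCOMM)Hmgu allele, a germline deletion that removes CHEK2 from all cells of the animal, and were about a week old. The study used C57BL/6J mice. Radiation was given to the whole body from a cesium source. Each bulk library was made from poly(A) RNA of paired ovaries. The labels give the libraries of a group as separate samples, and p-values measure the spread between these samples.

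CHEK2 is a checkpoint kinase that ATM switches on at DNA double-strand breaks. In the ovary it phosphorylates p53 and the oocyte protein TAp63, which bind the same kind of DNA element and induce genes for cell cycle arrest, apoptosis and feedback on p53 itself. Primordial oocytes, the reserve from which follicles grow, die by this route after low doses of radiation. ATM can also act on p53 and on its inhibitor MDM2 directly, and the kinases ATR and CHEK1 form a parallel arm of the checkpoint.

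The *Chek2*-/- libraries held 25600866 to 28610606 estimated counts, within the 17824920 to 32605519 of all bulk libraries. *Chek2* itself was at 2.88 to 4.44 CPM (counts scaled to a common library size) in non-irradiated and 3.34 to 4.53 CPM in irradiated *Chek2*-/- ovaries, against 19.8 to 24.6 CPM in non-irradiated wild-type ovaries. Replicate 6 of both *Chek2*-/- groups stood apart from the other 10 libraries along the first principal component, which held 38.4% of the variance, with scores of 67.8 and 46.2 against −21.8 to 9.51. These 2 libraries had *Xist*, the RNA that marks the inactive X chromosome of female cells, at 0.423 and 0.569 CPM, where the medians of their groups were 985 and 1030 CPM. The Y chromosome genes *Ddx3y* and *Eif2s3y* were at 0.768 and 0.96 CPM in non-irradiated replicate 6. In irradiated replicate 6 both were at 0. The cause of the low *Xist* was not tested. The same 2 libraries also had less RNA of oocyte markers, with sums of 4480 and 5180 CPM over 20 genes against 7590 to 8770 CPM in the other 10. Apart from these, irradiated replicate 2 carried neutrophil genes at a sum of 1760 CPM, with at most 21.1 CPM in the other *Chek2*-/- libraries. Many of the values below are given with these libraries and again without them.

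Without CHEK2, 3 genes were called as changed after irradiation by the main test used here, and all 3 rose: *Ccng1*, *Eda2r* and *Ano3*. In the quasi-likelihood test of edgeR, with p-values adjusted after Benjamini and Hochberg, they were the genes at an adjusted p of 0.05 or less, which is 0.0112% of 26790 tested. *Ano3* alone also changed by 2-fold or more (1 gene, 0.00373%). In the same test on the 12 *Chek2*-/- libraries alone, *Ccng1* was the 1 gene called. Before adjustment 568 genes were higher (2.12%) and 611 lower (2.28%) at p under 0.05, together 4.4% of the genes tested. DESeq2 on the 24 libraries called 14 genes, 9 of them at 2-fold or more. With replicate 6 of both groups left out, edgeR tested 26480 genes and called the same 3 (0.0113%), of which *Ano3* again was past 2-fold (0.00378%). At an unadjusted p under 0.05, 547 genes were then higher (2.07%) and 299 lower (1.13%). Of the 568 higher genes 396 kept that side and p without replicate 6, and of the 611 lower genes 202 did. Non-irradiated replicate 6 was the highest library for 385 of the 611.

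*Ccng1* encodes cyclin G1, a p53 target that feeds back on p53 through MDM2, and lies at chr11:40748552-40755311 on the minus strand (GRCm38). It was at 39.1, 41.0 and 45.3 CPM (lowest, median and highest library) in non-irradiated and at 56.2, 60.8 and 65.6 CPM in irradiated *Chek2*-/- ovaries. All 6 irradiated libraries were above all 6 non-irradiated ones, and replicate 6 was the highest library of each group. The means were 41.5 ± 2.17 and 61.1 ± 3.3 CPM (SD, n = 6 each). The log2 fold change of 0.56 had an SE of 0.05 (edgeR adjusted p = 6.82e-07), which is 1.47-fold with a 95% interval of 1.37 to 1.58. In wild-type ovaries *Ccng1* went from a median of 38.8 to 164 CPM, 4.09-fold. The rise without CHEK2 was 16% of the wild-type rise in CPM, and the difference between the log2 fold changes was −1.47 (edgeR adjusted p for the interaction = 8.12e-13).

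*Eda2r*, on the X chromosome at chrX:97333840-97377216 (minus strand), encodes a receptor of the TNF receptor family for ectodysplasin A2 and is a known p53 target. Its values were 14.1, 16 and 18.4 CPM without and 21.1, 23.3 and 25.6 CPM with irradiation. Again the groups did not overlap. The log2 fold change was 0.53 with an SE of 0.08 (edgeR adjusted p = 0.00427) with all libraries and 0.50 (edgeR adjusted p = 0.0255) without replicate 6. The call was lost in edgeR with the 12 *Chek2*-/- libraries alone (adjusted p = 0.0977) and without replicate 6 of both groups and irradiated replicate 2 (0.0732), a setting chosen after seeing the data. The wild-type change was 3.42-fold, and the rise in *Chek2*-/- ovaries was 17.8% of it in CPM. The interaction was −1.25 on the log2 scale (edgeR adjusted p = 9.4e-08).

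*Ano3*, a member of the anoctamin family of membrane proteins, lies at chr2:110655201-110950923 on the minus strand and overlaps *Muc15* on the other strand. It was a rare transcript, with 14 counts over the 6 non-irradiated and 55 over the 6 irradiated libraries. Its levels were 0.0383, 0.0773 and 0.148 CPM without and 0.265, 0.308 and 0.472 CPM with irradiation, so that every irradiated library was above every non-irradiated one. The log2 fold change was 1.87 with an SE of 0.25 (edgeR adjusted p = 0.00579), and without replicate 6 it was 1.90 (edgeR adjusted p = 0.0255). The median reached 5.78 CPM in irradiated wild-type ovaries, 47.33-fold by the fit. The *Chek2*-/- rise was 4.5% of the wild-type one in CPM. The call for *Ano3* was lost without non-irradiated replicate 3 (adjusted p = 0.0576 in edgeR) or irradiated replicate 4 (0.118), which left 0 genes past 2-fold. It was also lost in the fits of the 12 *Chek2*-/- libraries alone, where edgeR gave an adjusted p of 0.211, DESeq2 one of 0.14 and limma-voom with sample weights one of 0.132.

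**Figure D1:**
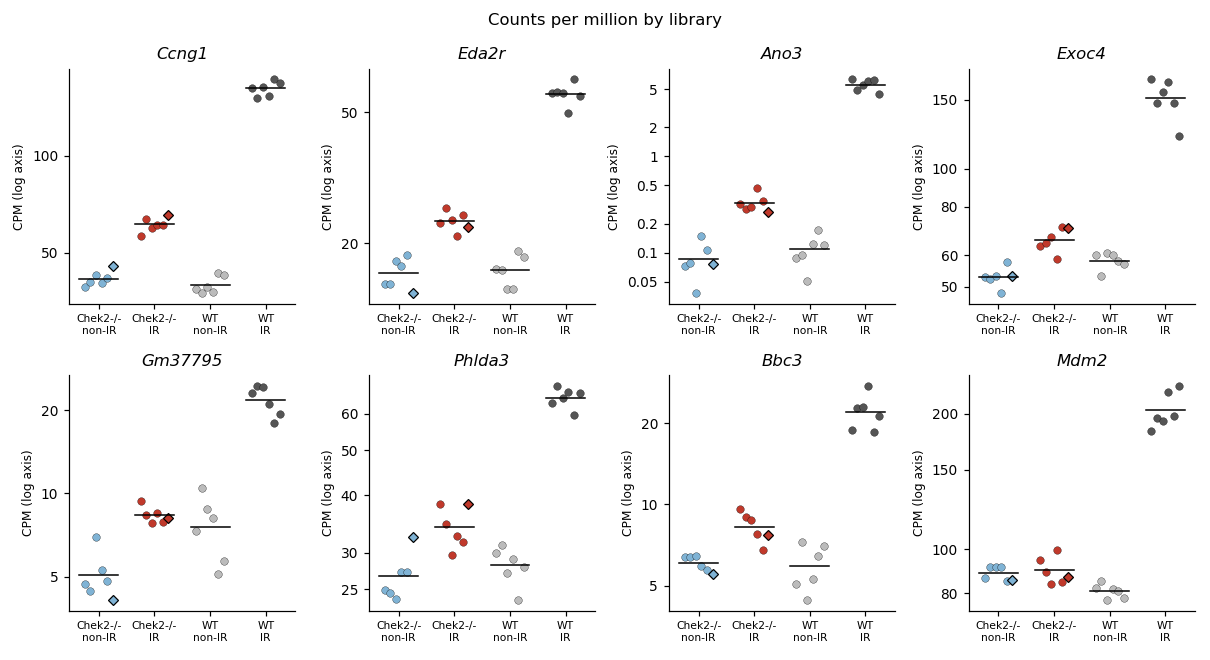
Levels in CPM (log axis) of *Ccng1*, *Eda2r*, *Ano3*, *Exoc4*, *Gm37795*, *Phlda3*, *Bbc3* and *Mdm2* in each bulk library of the 4 groups. Points are libraries, bars are group means, and diamonds with a black edge are replicate 6 of the *Chek2*-/- groups. In *Chek2*-/- ovaries all 6 irradiated libraries of *Ccng1* (56.2 to 65.6 CPM) lie above the non-irradiated ones (39.1 to 45.3 CPM) and below the irradiated wild-type libraries (151 to 173 CPM).

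Below these 3, higher and lower genes were mixed in the ranking by p, and *Slc14a1*, which was lower, came before *Gm37795*. The lower ones are given further below. Of those higher at 1 CPM or more, the genes of smallest p were *Gm37795*, *Exoc4*, *Phlda3*, *Gm43549*, *Mmp8* and *Bbc3*, none at an adjusted p of 0.05 or less in this edgeR fit. DESeq2 on the 24 libraries called 3 of them, *Gm37795* (adjusted p = 0.00346), *Exoc4* (0.0131) and *Phlda3* (0.0279). On the 12 *Chek2*-/- libraries DESeq2 called *Gm37795* (adjusted p = 6.7e-06), *Exoc4* (0.000137) and *Bbc3* (0.0197). *Gm37795*, a transcript at chr4:150068539-150070997 on the plus strand that awaits experimental confirmation of its status, was at 4.11, 4.75 and 6.93 CPM without and 7.82, 8.24 and 9.37 CPM with irradiation. Its 6 irradiated libraries were all above the others (log2 fold change 0.72, SE 0.14, edgeR adjusted p = 0.195, and 0.756 without replicate 6). Without non-irradiated replicate 3, its highest non-irradiated library, the adjusted p was 0.0443. It shares 17 bases with the hairpin of *Mir34a*, a p53-induced microRNA gene whose products restrain cell cycle genes. The hairpin itself had 2 counts in the table, so the poly(A) libraries say nothing of the microRNA. The mature sequences (RefSeq, GRCm38.p6) are shown for the position of the locus, with the seed, bases 2 to 8, in capitals. The 5p arm is at chr4:150068473-150068494 and the 3p arm at chr4:150068517-150068537.
mmu-miR-34a-5p: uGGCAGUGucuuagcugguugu
mmu-miR-34a-3p: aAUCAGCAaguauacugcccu

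*Exoc4*, a subunit of the exocyst at chr6:33249085-33973979 (plus strand), was at 48.1, 53 and 57.6 CPM in non-irradiated and 58.7, 65.8 and 70.9 CPM in irradiated *Chek2*-/- ovaries. The groups did not overlap, though by a narrow margin (log2 fold change 0.32, SE 0.06, edgeR adjusted p = 0.233). *Phlda3*, a p53 target that blocks AKT at the membrane (chr1:135766119-135769136, plus strand), went from 23.8, 26.1 and 32.5 CPM to 29.7, 33.6 and 38.3 CPM. Here 4 of 6 irradiated libraries were above all non-irradiated ones, and the log2 fold change of 0.35 had an edgeR adjusted p of 0.414, or 0.102 without replicate 6. Without non-irradiated replicate 6 alone, the highest library of its group, it was 0.0409. *Bbc3*, which encodes the pro-apoptotic BH3-only protein PUMA (chr7:16308393-16318205, plus strand), was at 5.53, 6.15 and 6.43 CPM without and 6.75, 8.26 and 9.66 CPM with irradiation. All 6 irradiated libraries were above the non-irradiated ones, with a log2 fold change of 0.45 and an SE of 0.12 (edgeR adjusted p = 0.516). The wild-type log2 fold changes of *Exoc4*, *Phlda3* and *Bbc3* were 1.38, 1.21 and 1.89, and each differed from the *Chek2*-/- one by the interaction test (edgeR adjusted p = 9.4e-08, 3.69e-05 and 8.06e-06). *Gm43549*, a long intergenic non-coding RNA on chromosome 3, went from 20, 39.7 and 50.2 CPM to 49.8, 67.7 and 94.0 CPM, 0.89 on the log2 scale with an SE of 0.23 (edgeR adjusted p = 0.516). Its wild-type change was 1.67, and the interaction was not past the threshold (edgeR adjusted p = 0.42). *Mmp8*, a neutrophil collagenase, was at 21.4 CPM in irradiated replicate 2, with a group median of 0.0875 CPM.

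In all, 24 genes had 6 of 6 irradiated libraries above all non-irradiated ones (0.0896% of genes tested) and 16 had 6 of 6 below (0.0597%). With 6 libraries a group, some genes separate in full by the order of the labels alone. How many would do so was not computed, so these counts are a description. Among the 24 were 7 genes with an adjusted p of 0.05 or less in wild-type ovaries, namely *Ccng1*, *Eda2r*, *Ano3*, *Gm37795*, *Exoc4*, *Bbc3* and *Zmat3*. Among the 16 there were 0 genes that were lower in wild-type ovaries at such an adjusted p, which 2.41% of the genes tested had there in either direction. *Zmat3*, an RNA-binding p53 target, was at 35.4, 37.7 and 39.9 CPM without and 40.5, 42.9 and 51.0 CPM with irradiation (log2 fold change 0.21, edgeR adjusted p = 0.881).

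A list of 56 p53 targets, written with earlier results of these data in view, had 55 members among the genes tested. Of the 55, 44 were higher and 11 lower in irradiated *Chek2*-/- ovaries, 3 were called, and 11 were higher at an unadjusted p under 0.05 with 0 lower, where 2.12% of all genes tested were higher. The median log2 fold change was 0.07, and 0.09 without replicate 6, with 0.00 for all genes tested. The 11 were *Ccng1*, *Eda2r*, *Ano3*, *Exoc4*, *Phlda3*, *Bbc3*, *Zmat3*, *Cdkn1a*, *Aen*, *Sesn2* and *Bax*. In wild-type ovaries 34 targets rose at an adjusted p of 0.05 or less, as 409 of all 26790 genes tested did. The median log2 fold change over the 34 was 1.22. These 34 had a median of 0.12 in *Chek2*-/- ovaries, where 31 were higher, 10 of them at an unadjusted p under 0.05, and the 95% interval took in 0 for 24. Gene by gene the *Chek2*-/- log2 fold change as a share of the wild-type one had a median of 14.6%, from −10.3% to 33.6%, and 28 of the 34 had an interaction at an adjusted p of 0.05 or less (1.03% of all genes tested). The 34 were picked on the wild-type libraries, which enter the interaction, so that count is a description. The other 21 targets had a median of 0.01, with 13 higher and 1, *Aen*, at an unadjusted p under 0.05. Across the 52 targets at 1 CPM or more, the log2 fold changes of the 2 genotypes had a Pearson r of 0.59 and a Spearman rho of 0.55, and 0.68 and 0.59 without replicate 6. This is a description across genes, which share libraries and are not independent replicates.

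**Figure D2:**
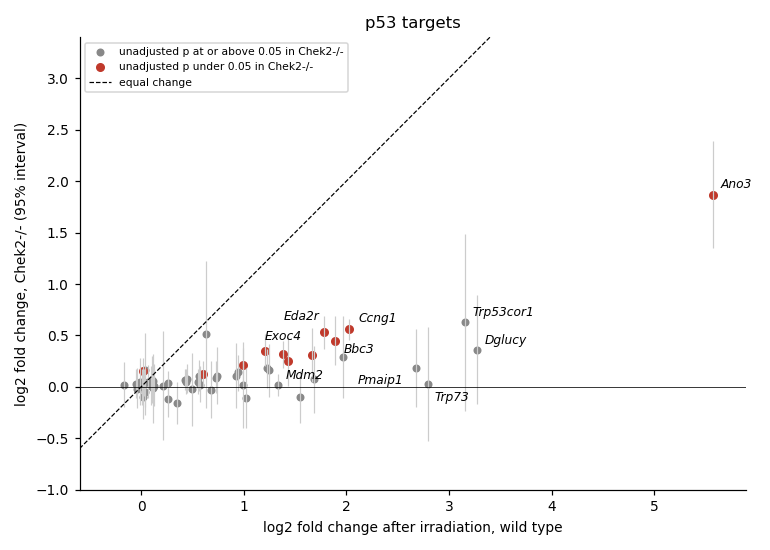
Log2 fold change after irradiation of p53 target genes in *Chek2*-/- ovaries (vertical axis, lines are 95% intervals) against that in wild-type ovaries (horizontal axis). Each point is 1 gene, red at an unadjusted p under 0.05 in *Chek2*-/- ovaries, and the dashed line marks equal change. The 34 targets that rose in wild-type ovaries have a median of 1.22 there and of 0.12 in *Chek2*-/- ovaries.

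Library by library, the median over the 52 p53 targets at 1 CPM or more of the log2 level relative to the mean of the non-irradiated libraries was −0.067, 0.006 and 0.042 (lowest, median and highest) without and 0.041, 0.090 and 0.109 with irradiation in *Chek2*-/- ovaries. The sole overlap was between irradiated replicate 6, at 0.041, and non-irradiated replicate 3, at 0.042. Irradiated wild-type libraries lay at 0.504 to 0.583, above the highest *Chek2*-/- value, and non-irradiated ones at −0.021 to 0.017.

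**Figure D3:**
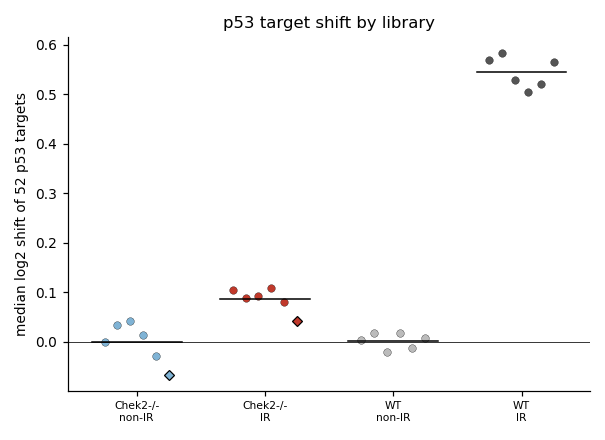
Median log2 shift of the 52 p53 target genes in each bulk library relative to the non-irradiated mean of its genotype, by group. Points are libraries, bars are group means, and diamonds with a black edge are replicate 6 of the *Chek2*-/- groups. Irradiated *Chek2*-/- libraries lie at 0.041 to 0.109 and irradiated wild-type libraries at 0.504 to 0.583.

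The promoters of these targets were searched for the p53 decamer, the unit from which p53 and p63 response elements are built and which reads the same on both strands. Within 250 bases before the RefSeq start (GRCm38.p6), 8.2% of 27025 genes had a match, and 12 of the 44 p53 targets with such a start did (27.3%). Matches were present in 5 of 10 targets at an unadjusted p under 0.05 in *Chek2*-/- ovaries, *Ccng1*, *Exoc4*, *Cdkn1a*, *Bax* and *Aen*, and in 7 of the other 34, *Mdm2* among them. A match here is a description of the letters and not a binding site. Elements outside these 250 bases were not searched. *Mdm2* is shown with 4 of the 5 because it too has a match, with a log2 fold change near 0. The windows below are each 5′ to 3′ on the strand of the gene, with the match in capitals. They lie at chr11:40755452-40755481 (minus strand, 185 bases before the start), chr6:33248915-33248944 (plus, 203), chr17:29090896-29090925 (plus, 73), chr17:29090918-29090947 (plus, 51), chr7:45467080-45467109 (minus, 201) and chr10:117710925-117710954 (minus, 186).
Ccng1: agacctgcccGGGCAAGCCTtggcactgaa
Exoc4: tttattgtccAGGCATGCCCgggaccggca
Cdkn1a, farther match: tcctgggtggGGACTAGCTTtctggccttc
Cdkn1a, nearer match: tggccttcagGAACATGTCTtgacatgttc
Bax: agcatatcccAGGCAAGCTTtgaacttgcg
Mdm2: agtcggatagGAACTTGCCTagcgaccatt

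The classical arrest gene *Cdkn1a*, which encodes the CDK inhibitor p21, was at 31.8, 39.7 and 43.0 CPM without and 37.3, 48.7 and 59.0 CPM with irradiation, and the groups overlapped. Its log2 fold change of 0.31 (edgeR unadjusted p = 0.0199) stood against 1.67 in wild-type ovaries. Before irradiation *Cdkn1a* was higher in *Chek2*-/- than in wild-type ovaries (log2 difference 0.47, edgeR adjusted p = 0.0308), but the 2 genotypes overlapped. Non-irradiated wild-type replicates 5 and 6, at 34.3 and 36.6 CPM, lay inside the non-irradiated *Chek2*-/- range. The other non-irradiated wild-type libraries were at 27.8 CPM or less. Whether the difference holds against replicates 5 and 6 alone was not tested. *Mdm2*, the ubiquitin ligase that degrades p53, was at 85.2, 88.8 and 91.5 CPM without and 83.7, 87.9 and 99.8 CPM with irradiation. Its log2 fold change of 0.02 had a 95% interval of −0.09 to 0.13, which leaves out the wild-type value of 1.33, and the interaction was −1.31 (edgeR adjusted p = 4.1e-11). *Ccng1* and *Mdm2*, both feedback genes of p53, thus had intervals that did not overlap in *Chek2*-/- ovaries, 0.46 to 0.66 and −0.09 to 0.13.

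Among genes for apoptosis, *Pmaip1*, which encodes the BH3-only protein NOXA, was at 2.85, 3.23 and 3.56 CPM without and 2.58, 3.67 and 4.66 CPM with irradiation. The log2 fold change of 0.18 had an interval of −0.20 to 0.56, with 2.68 in wild-type ovaries. *Bax*, the effector that opens the mitochondrial membrane, went from 48.0, 50.0 and 53.3 to 50.8, 55.3 and 57.3 CPM (log2 fold change 0.13, edgeR unadjusted p = 0.0459). Over 20 pro-apoptotic genes 11 were higher and 9 lower, with *Bbc3* and *Bax* at an unadjusted p under 0.05, *Bbc3* alone without replicate 6, and a median of 0.02. Of all genes 2.12% were higher at that p, and 2.07% without replicate 6. The 11 pro-survival genes had 6 higher, 5 lower, 0 at an unadjusted p under 0.05 in edgeR and a median of 0.00. *Trp73*, which encodes the p53 relative p73, was at 0.423, 1.72 and 1.98 CPM without and 0.607, 1.58 and 2.05 CPM with irradiation. Its interval of −0.53 to 0.58 on the log2 scale excluded the wild-type change of 2.80. *Trp53inp1*, a stress-induced partner of p53, had a log2 fold change of 0.18 (edgeR unadjusted p = 0.0566). *Sesn2*, a sestrin that restrains mTORC1, had one of 0.25 (edgeR unadjusted p = 0.0411). For *Aen*, a p53-induced nuclease, it was 0.15 (edgeR unadjusted p = 0.0212). *Aen* had 0.02 in wild-type ovaries. *Dglucy*, a mitochondrial D-glutamate cyclase, was at 1.66, 2.26 and 6.65 CPM without and 2.62, 3.37 and 4.69 CPM with irradiation (log2 fold change 0.36). The highest non-irradiated value was that of replicate 6, and without replicate 6 of both groups the change was 0.89 (edgeR adjusted p = 0.102), with 3.27 in wild-type ovaries.

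Of the 288 genes past adjusted p 0.05 and 2-fold in wild-type ovaries, 3 were called in *Chek2*-/- ovaries, 152 had the same sign there, and for 280 the 95% interval of the *Chek2*-/- change left out the wild-type value. The 230 genes that rose in wild-type ovaries had a median log2 fold change of 2.12 there and of 0.066 in *Chek2*-/- ovaries (0.0881 without replicate 6). Of these, 130 were higher in *Chek2*-/- ovaries and 22 were so at an unadjusted p under 0.05 (9.57%, with 2.12% of all genes). Of the 58 that fell in wild-type ovaries, 2 were lower at an unadjusted p under 0.05, with 2.28% of all genes. The interaction was past its threshold for 138 of the 288. These genes were picked on the wild-type libraries, which enter the interaction, so that count is a description. The study's own list of genes induced in wild-type ovaries had 77 members tested, 47 higher and 29 lower in *Chek2*-/- ovaries, with 12 and 5 at an unadjusted p under 0.05 (13 and 3 without replicate 6). Over all genes 2.12% were higher and 2.28% lower at that p. That list was chosen on libraries of this series. Its median of 0.09 became 0.04 for the 63 members absent from the list of p53 targets above, of which 34 were higher and 28 lower, 6 and 5 of them at an unadjusted p under 0.05. These 63 are not free of p53 or p63 targets. The paper reports regulation by p53 or p63 for *Cbr2*, *Ankrd65*, *Fermt1* and *Fermt3* among them.

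Other genes that the study names for the bulk response were not called by edgeR. *Lhx3*, a LIM homeodomain factor of pituitary and motor neurons, had 1 count in each *Chek2*-/- group, where irradiated wild-type ovaries had a median of 1.63 CPM. *Nox1*, a catalytic subunit of NADPH oxidase whose wild-type log2 fold change was −2.59, was at 1.19, 2.27 and 2.88 CPM without and 1.33, 2.29 and 2.59 CPM with irradiation. The difference between genotypes was 2.55 (edgeR adjusted p = 9.16e-05). *Dcxr*, a dicarbonyl reductase, was at 5.25, 5.98 and 7.65 CPM without and 4.28, 5.81 and 6.71 CPM with irradiation (log2 fold change −0.10 against 1.55 in wild-type ovaries). *Nectin4*, an adhesion protein of epithelia, had all 6 irradiated libraries below the non-irradiated ones, at 0.112, 0.195 and 0.341 against 0.344, 0.36 and 0.845 CPM (log2 fold change −1.13, edgeR unadjusted p = 0.0121), where wild-type ovaries had 3.83. *Inka2*, an inhibitor of the kinase PAK4 named here after its values were seen, was at 2.43, 3.05 and 3.61 CPM without and 3.52, 3.92 and 4.39 CPM with irradiation (log2 fold change 0.36, edgeR unadjusted p = 0.00139).

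*Cbr2*, a carbonyl reductase, was at 0.0765, 0.345 and 3.46 CPM without and 0, 0.147 and 0.216 CPM with irradiation, a change of −2.64 that was −1.33 without replicate 6, where wild-type ovaries had 5.01. The kindlin gene *Fermt1* had −1.18, which was −0.42 without non-irradiated replicate 6 (3.88 CPM), against 4.47 in wild-type ovaries. Its relative *Fermt3* had 0.59 against 3.6, with 8.91 CPM in irradiated replicate 2 as its highest value. *Padi6*, an oocyte protein of the cytoplasmic lattices, was at 1520, 2220 and 2390 CPM without and 1780, 2240 and 2600 CPM with irradiation (log2 fold change 0.05). *Ankrd65* had 2 and 6 counts over the non-irradiated and irradiated libraries. *Gm37385* was at 0 in all but irradiated replicate 4 (8.25 CPM), and *Gm43520* was at 0 in all irradiated libraries and at up to 6.74 CPM without irradiation. DESeq2 on the 24 libraries called both, *Gm37385* as higher (adjusted p = 0.00023) and *Gm43520* as lower (4.45e-05). The paper's supplement lists *Gm37385*, *Padi1* and *Gm43520* as changed in *Chek2*-/- ovaries, while its text names *Padi6* in place of *Padi1*.

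For well-measured genes the libraries bound the response of the whole ovary that could have been missed. A larger change confined to a rare cell type, such as oocytes, could lie inside these bounds. Of 15970 genes at 1 CPM or more over the *Chek2*-/- libraries, 15306 (95.8%) had a 95% interval inside a 2-fold change in both directions and 14001 (87.7%) inside 1.5-fold. The median SE of the log2 fold change was 0.0885, with 0.089 in wild-type ovaries.

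Of the genes called by edgeR 0 were lower, with 611 lower at an unadjusted p under 0.05 and 6 lower among those called by DESeq2 on the 24 libraries. The 8 genes of smallest p at the lower end are known from epithelia and kidney. *Slc14a1*, a urea transporter, was at 1.99, 4.11 and 13.9 CPM without and 0.0348, 0.187 and 0.744 CPM with irradiation. All 6 irradiated libraries were below all non-irradiated ones (log2 fold change −4.28, SE 0.81, edgeR adjusted p = 0.148, and −3.74 with 0.756 without replicate 6). In wild-type ovaries the same gene ranged from 0.313 to 4.58 CPM without and from 0.0352 to 11.7 CPM with irradiation. Its interaction of −5.31 had an edgeR adjusted p of 0.00708. *Slc44a4*, a transporter of epithelial cells, went from 0.564, 1.06 and 5.34 CPM to 0.348, 0.446 and 0.493 CPM (log2 fold change −1.96, edgeR adjusted p = 0.484, and −1.18 without replicate 6). *Wfdc2*, a secreted protein of the reproductive tract epithelium, went from 0.306, 2.49 and 14.4 CPM to 0.0707, 0.237 and 0.607 CPM (−3.88, edgeR adjusted p = 0.484, and −3.22 without replicate 6). *Padi1*, a peptidylarginine deiminase of epithelia, was at 0.155, 5.12 and 44.7 CPM without and 0.0719, 0.109 and 0.209 CPM with irradiation (−6.59, edgeR adjusted p = 0.502). DESeq2 on the 24 libraries called *Slc14a1*, *Slc44a4*, *Wfdc2* and *Padi1*.

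Epithelial markers of the oviduct and uterus, which lie against the ovary, had lower values as well. Of the 10 measured markers 10 had a log2 fold change below 0, 0 were called and 3 had an unadjusted p under 0.05 (*Ovgp1*, *Sprr2f* and *Foxa2*), which 1 had without replicate 6. Over all genes 2.28% were lower at that p, and 1.13% without replicate 6. Of the 10 markers 4 were at 1 CPM or more. The median of the 10 was −0.92, and −0.44 without replicate 6, with 0.66 in wild-type ovaries. Their summed level was 9.28 to 36.4 CPM without and 7.15 to 15.0 CPM with irradiation. *Ovgp1*, the oviductal glycoprotein, was at 4.86, 6.63 and 9.22 CPM without and 3.94, 4.68 and 5.03 CPM with irradiation. Their part in the lower values of *Slc14a1*, *Slc44a4*, *Wfdc2* and *Padi1* was not tested.

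The other genes at the lower end had their high values in non-irradiated replicate 6. *Umod*, the uromodulin of the kidney tubule, was at 72.0 CPM there and at 0.458 to 1.11 CPM in the other 5, and its log2 fold change went from −4.46 to −0.49 without replicate 6. *Cyp2a4*, *Acsm2*, *Mep1a* and *Slc34a1*, all genes of the kidney tubule, were at 29.7, 44.8, 60.4 and 19.9 CPM in that library, and their changes of −6.93, −4.87, −5.71 and −5.70 became −1.38, −0.38, −0.81 and −1.42. A list of 16 kidney genes, written after these values were seen, summed to 1140 CPM in non-irradiated replicate 6 and to 37.3 to 66.7 CPM in the other *Chek2*-/- libraries. It had 11 members lower at an unadjusted p under 0.05, where 2.28% of all genes were, and 0 without replicate 6. Its median of −3.48 was −0.08 without replicate 6.

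Genes for damage sensing and repair, which act around CHEK2, had log2 fold changes near 0. Over 25 checkpoint and damage sensor genes, 17 were higher and 8 lower, 0 reached an unadjusted p of 0.05 in edgeR, and the log2 fold changes lay between −0.08 and 0.12. *Atm*, the kinase upstream of CHEK2, was at 71.4, 74.0 and 78.3 CPM without and 76.7, 80.2 and 82.6 CPM with irradiation (log2 fold change 0.11, edgeR unadjusted p = 0.0841). *Chek1* was at 32.8, 60.2 and 61.5 CPM without and 36.9, 54.3 and 59.0 CPM with irradiation, with both lowest values in replicate 6. Of 16 end-joining genes 10 were higher with 0 at an unadjusted p under 0.05, and of 32 genes of homologous recombination and the Fanconi pathway 19 were higher with 1, the nuclease scaffold *Slx4* (0.11, edgeR unadjusted p = 0.0349), where 2.12% of all genes were. Without replicate 6 that count was 0. Both medians were 0.01. *Trp53* and *Trp63*, the genes of p53 and p63, had log2 fold changes of 0.07 and 0.09, with −0.06 and −0.41 in wild-type ovaries.

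Cell cycle genes had medians near 0. The 30 genes of G2 and mitosis had 24 higher, 6 lower, a median of 0.03 and 0 at an unadjusted p under 0.05 in edgeR, and the 30 genes of DNA replication had 9 higher, 21 lower, a median of −0.02 and again 0. *Pcna*, the sliding clamp of DNA polymerase, was at 113, 121 and 127 CPM without and 106, 110 and 121 CPM with irradiation (log2 fold change −0.10, edgeR unadjusted p = 0.0606). The 31 immediate-early genes had 27 lower, a median of −0.11 and 0 at an unadjusted p under 0.05. With each library left out their median lay between −0.17 (without non-irradiated replicate 5) and −0.03 (without non-irradiated replicate 2, with 19 lower). In wild-type ovaries their median was 0.15, and that difference was not tested for the list. *Ddit4*, the stress-induced inhibitor of mTORC1, had −0.17 in *Chek2*-/- and 0.52 in wild-type ovaries, an interaction of −0.68 (edgeR adjusted p = 0.00308). Of 20 genes of cholesterol synthesis 15 were lower, 3 of them at an unadjusted p under 0.05 (*Idi1* −0.30, *Msmo1* −0.18, *Sqle* −0.14), with a median of −0.05 and 2.28% of all genes lower at that p. Without replicate 6 only *Idi1* was at that p, and 1.13% of all genes were lower. Of 20 collagen and matrix genes 16 were higher with a median of 0.07. At an unadjusted p under 0.05, 1 was higher, *Col6a3* (0.26, edgeR unadjusted p = 0.0211), where 2.12% of all genes were. Without non-irradiated replicate 1 the median was 0.01 with 0 at that p. Without non-irradiated replicate 6 alone it was 0.17 with 4 higher at that p.

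The summed level of interferon-stimulated genes was highest in 1 library. Of 39 such genes 37 were higher, with a median of 0.41, which was −0.08 without replicate 6. At an unadjusted p under 0.05, 1 was higher (*Oas3*, an antiviral oligoadenylate synthetase), where 2.12% of all genes were. Without replicate 6, 0 were at that p. *Oas3* itself was highest in irradiated replicate 2, at 3.05 CPM, with 2.73 CPM in irradiated replicate 6. The sum of the 39 genes was 1660 CPM in irradiated replicate 6 and 518 to 738 CPM in the other *Chek2*-/- libraries. *Ifit3*, an antiviral effector, was at 57.6 CPM in that library with a group median of 2.95 CPM, and its log2 fold change went from 1.97 to −0.34 without replicate 6. Of 26 chemokine and NF-kB target genes 16 were higher with a median of 0.04 and 0 at an unadjusted p under 0.05 in edgeR. Without replicate 6 the median was −0.13 and 3 were lower at that p, which 1.13% of all genes were. Of 28 genes for heat shock and redox stress 21 were lower with a median of −0.04. Of the 28, 1 was higher at an unadjusted p under 0.05, where 2.12% of all genes were, and 0 were without replicate 6.

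Markers of oocytes, granulosa, stroma and theca had 0 members at an unadjusted p under 0.05 in edgeR, both with and without replicate 6. In a bulk library fewer cells of a type and less RNA per cell cannot be told apart. The 20 oocyte markers had 17 higher, a median of 0.03 (0.00 without replicate 6 of both groups, −0.07 without the non-irradiated one alone and 0.10 without the irradiated one alone), and their sum was at a median of 7960 CPM without and 8260 CPM with irradiation. *Sohlh1*, a transcription factor of primordial oocytes, was at 40.0, 62.5 and 71.5 CPM without and 53.8, 64.7 and 75.7 CPM with irradiation, with replicate 6 lowest in both. Its log2 fold change of 0.10 differed from the −0.78 of wild-type ovaries (interaction 0.88, edgeR adjusted p = 0.0131). The 14 granulosa markers had a median of 0.02, the 12 stroma markers −0.01 and the 12 theca and steroid markers −0.12. Surface epithelium (11 genes, 10 lower, −0.19), endothelium (12 genes, 11 lower, −0.04), mural and muscle cells (12 genes, 10 lower, −0.24), adipose tissue (10 genes, 9 lower, −0.54), skeletal muscle (9 genes, 3 lower, 0.07) and erythroid cells (9 genes, all lower, −0.53) had 0 members at that p as well. Without replicate 6 these counts stayed at 0 except for mural and muscle cells, where 2 genes were lower at that p (1.13% of all genes were) and the median was −0.30. The median was then 0.01 for endothelium, −0.19 for adipose tissue, −0.14 for surface epithelium, 0.05 for skeletal muscle and −0.54 for erythroid cells. Surface epithelium genes summed highest in replicate 6 of both groups, at 1820 CPM without and 1690 CPM with irradiation, against 801 to 1260 CPM in the other 10 libraries. Erythroid genes summed to 10500 CPM in non-irradiated replicate 5 and 7090 CPM in irradiated replicate 2, with at most 834 CPM elsewhere in these groups. Their direction rested on these 2 libraries. Without irradiated replicate 2 the erythroid median was −2.35 with 7 genes lower at an unadjusted p under 0.05, and without non-irradiated replicate 5 it was 1.5 with 7 higher. All 10 neutrophil genes were higher, 6 of them at an unadjusted p under 0.05, where 2.12% of all genes were, with a median of 5.97. Without irradiated replicate 2, 3 were higher and 7 lower, 0 were at that p and the median was −0.58. Their summed level in the irradiated group was 7.09 to 15.2 CPM in the 5 libraries other than replicate 2. Macrophage genes had 9 of 10 higher, a median of 0.11 (0.32 without replicate 6, with 2 then higher at that p, as 2.07% of all genes were) and 1 at that p, *Ptprc*. This pan-leukocyte marker was at 34.9 CPM in irradiated replicate 2 with a group median of 2.46 CPM, and without that library 0 macrophage genes were at that p.

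**Figure D4:**
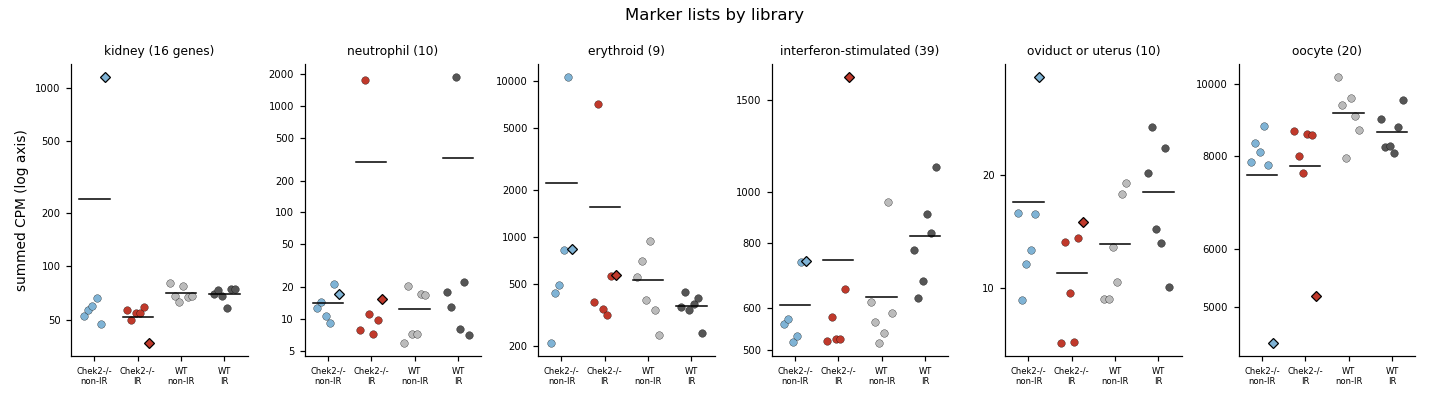
Summed level in CPM (log axis) of 6 marker lists in each bulk library of the 4 groups. Points are libraries, bars are group means, and diamonds with a black edge are replicate 6 of the *Chek2*-/- groups. Oocyte sums of *Chek2*-/- ovaries lie at 7590 to 8770 CPM in 10 libraries and at 4480 and 5180 CPM in replicate 6, the kidney sum reaches 1140 CPM in non-irradiated replicate 6 and the neutrophil sum 1760 CPM in irradiated replicate 2.

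The 2 *Chek2*-/- single-cell libraries, from ovaries of other females, gave a second reading of the same genes, with 1 library per condition and so no test. After removal of barcodes with few genes or many mitochondrial reads they kept 9091 barcodes without and 9172 with irradiation, and 30 barcodes occurred in both. Intervals cover counting error only. The share of all UMIs of *Ccng1* was 1.35 times as high after irradiation (95% interval 1.28 to 1.41), with 3.83 times in the wild-type pair. *Eda2r* had a ratio of 1.41 (1.23 to 1.61) and *Ano3* one of 2.43 (1.42 to 4.35, from 19 to 53 UMIs), with 4.42 and 43.7 in the wild-type pair. The interval lay above 1 for each of these 3, and so it did for 32.5% of the 15991 genes with at least 100 UMIs in this pair, where 22.2% had it below 1. The median ratio over those genes was 1.01, and 4.86% had a ratio at or above that of *Ccng1*. Oocyte genes were among the higher ones, with *Gdf9* at 1.96, *Padi6* at 1.35 and *Zp3* at 1.31. Granulosa genes differed among themselves, with *Amh* at 1.28, *Inhbb* at 1.01 (0.99 to 1.02), *Foxl2* at 0.897 (0.886 to 0.908) and *Inhba* at 0.861 (0.829 to 0.895).

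Further p53 targets went the same way in this pair of libraries, though not all of them. *Exoc4* was at a ratio of 1.24 (1.2 to 1.28), *Cdkn1a* at 1.73 (1.62 to 1.85), *Dglucy* at 1.83 (1.62 to 2.06), *Zmat3* at 1.16 (1.08 to 1.23), *Bax* at 1.19 (1.17 to 1.21) and *Trp53inp1* at 1.25 (1.18 to 1.32). *Sesn2* was at 1.23 (1.13 to 1.35) and *Aen* at 1.17 (1.13 to 1.21). The wild-type ratios of *Cdkn1a* and *Dglucy* were 7.95 and 5.45. *Mdm2* had a ratio of 1.07 (1.04 to 1.11) against 2.57. *Phlda3* and *Bbc3*, which were among the smallest p-values in bulk, had ratios of 1.0 (0.975 to 1.03) and 1.04 (0.961 to 1.12), and *Pmaip1* was lower at 0.792 (0.634 to 0.989). *Dcxr* and *Trp73* had ratios of 1.35 (1.28 to 1.44) and 1.88 (1.08 to 3.37, from 20 to 43 UMIs), where their bulk log2 fold changes were −0.10 and 0.03. Among genes at the lower end in bulk, *Slc44a4* was at 2.35 (1.29 to 4.46), *Wfdc2* at 1.26 (1.07 to 1.48) and *Slc14a1* at 1.13 (0.46 to 2.89) in this pair. *Padi1* was at 0.59 (0.332 to 1.03, from 34 to 23 UMIs). A ratio between 2 libraries also holds whatever else differed between them, and this was not tested.

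**Figure D5:**
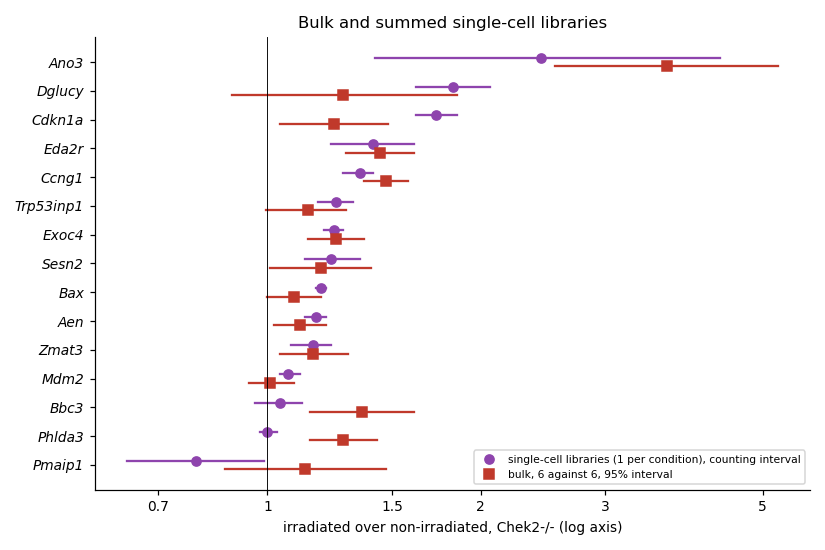
Ratio of irradiated over non-irradiated *Chek2*-/- ovaries (log axis) for p53 target genes, in the summed single-cell libraries (circles, exact 95% intervals for counting error) and in bulk (squares, 95% intervals over 6 libraries a group). *Ccng1* lies at 1.35 and 1.47, *Ano3* at 2.43 and 3.66, and *Phlda3* at 1.0 in single cells.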

How the data were processed

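Bulk RNA-seq was made from paired ovaries (KAPA mRNA HyperPrep, HiSeq). Per the labels and methods the authors used FastQC 0.11.9, Trim Galore 0.6.5, Salmon 1.3.0 against Ensembl transcripts and MultiQC 1.9, and deposited estimated counts per gene, not scaled between libraries. The labels name mm10 (GRCm38). The single-cell files hold whole counts of UMIs per barcode, which the authors made with Cell Ranger and deposited before their filters on cells.

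Estimated counts were rounded. Genes with at least 10 counts over the fitted libraries were normalized by TMM and fitted in edgeR 4.0.16 (R 4.3.3) over all 24 bulk libraries, with 1 coefficient per group, so that the 4 groups share 1 estimate of the spread. Contrasts were tested by the quasi-likelihood test, with Benjamini-Hochberg adjustment over all genes. CPM use TMM-scaled totals. Intervals (95%) come from the estimate and its SE. Precision rests on the replicates, at 25600866 to 28610606 counts per *Chek2*-/- library. Symbols were assigned to 44118 identifiers from the reference and to 34 from the single-cell table, and 522 had none. The sources used here do not say whether strand was used, so overlapping genes may share reads. UMIs were summed over barcodes with at least 1000 genes and at most 20% mitochondrial UMIs, with exact conditional intervals for ratios. Doublets were not removed, since all barcodes of a library were summed.

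Alternatives were the 12 *Chek2*-/- libraries alone, RLE normalization, other count filters, DESeq2 1.42.0, limma 3.58.1 (voom, with and without sample weights), a replicate block, each library left out and all barcodes. The code was tested on simulated data. Of the authors' own comparisons, gene names were used and no values. These were the genes they list as induced in wild-type ovaries and those they name for the bulk response in either genotype.

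Genes are named if called, if among the 8 of smallest p in each direction at 1 CPM or more, if the study names them for the bulk response, if p53 targets at an unadjusted p under 0.05 or among the 3 of largest wild-type change, or if among up to 3 of smallest p in another list. Others were chosen after their values were seen, namely *Atm*, *Trp53*, *Dglucy*, *Inka2*, *Nectin4*, *Chek1*, *Xist*, *Amh*, *Hspg2*, *Lamc1*, *Rgs9*, *Pla2g6*, *Mdn1*, *Zfp367*, *Nanp* and *Slc25a17*. Lists and genes were chosen with earlier results of these data known.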

Additional observations from a re-analysis of the deposited data

Results flagged for a closer look

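Of 136 sets of values (1 gene or marker sum in 1 *Chek2*-/- group of 6 libraries), 39 had a library farther from its neighbour than Dixon's 95% limit allows. Among independent sets of normal values about 1 in 20 would do so, but that is no benchmark here. The sets share libraries, and some genes and the kidney list were chosen after their values were seen. Most of the 39 fell to 3 libraries.

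Non-irradiated replicate 6 stood apart 16 times. It was highest for *Umod* (72.0 CPM), *Mep1a* (60.4), *Acsm2* (44.8), *Cyp2a4* (29.7) and *Slc34a1* (19.9) and for the kidney sum (1140 CPM), for *Wfdc2* (14.4), *Slc14a1* (13.9) and *Slc44a4* (5.34), and for *Dglucy* (6.65), *Fermt1* (3.88), *Ptprc* (3.8) and *Cbr2* (3.46), all in CPM. It was lowest for *Padi6* (1520 CPM), *Amh* (31.2 CPM) and *Xist* (0.423 CPM). Irradiated replicate 6 was lowest for *Xist* (0.569 CPM) and highest for the sum of interferon-stimulated genes (1660 CPM), *Ifit3* (57.6 CPM), *Irf7* (23.0 CPM) and *Slc34a1* (0.19 CPM). Irradiated replicate 2 was highest for the neutrophil sum (1760 CPM), *Ngp* (383), *Ltf* (280), *Ptprc* (34.9), *Retnlg* (34.7), *Mmp8* (21.4) and *Fermt3* (8.91), for the erythroid sum (7090 CPM) and for *Lhx3* (0.0359 CPM, 1 count).

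The rest were scattered. Irradiated replicate 1 was highest for *Zmat3* (51.0 CPM) and *Mep1a* (0.531 CPM), irradiated replicate 3 lowest for *Aen* (143 CPM) and irradiated replicate 4 the sole *Chek2*-/- library with *Gm37385* (8.25 CPM). Non-irradiated replicate 3 was highest for *Gm43520* (6.73 CPM), replicate 4 for *Trp53cor1* (0.665 CPM) and *Lhx3* (0.037 CPM, 1 count), and replicate 5 for the erythroid sum (10500 CPM) and *Retnlg* (0.317 CPM).

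The change after irradiation differed between genotypes for 29 of the genes followed here (interaction test of edgeR, adjusted p of 0.05 or less), as it did for 1.03% of all genes tested. Many of the genes followed were picked for their changes in these same libraries, so the count is a description. Given as the *Chek2*-/- minus the wild-type log2 fold change, p53 targets had −3.69 for *Ano3*, −2.91 for *Dglucy*, −2.77 for *Trp73*, −2.53 for *Trp53cor1*, −2.50 for *Pmaip1*, −1.65 for *Dcxr*, −1.47 for *Ccng1*, −1.44 for *Bbc3*, −1.36 for *Cdkn1a*, −1.31 for *Mdm2*, −1.25 for *Eda2r*, −1.18 for *Sesn2*, −1.06 for *Exoc4*, −1.04 for *Trp53inp1*, −0.85 for *Phlda3*, −0.78 for *Zmat3* and −0.48 for *Bax*. Genes induced in wild-type ovaries and absent from the list of p53 targets had −7.66 for *Cbr2*, −5.65 for *Fermt1*, −4.95 for *Nectin4*, −3.01 for *Fermt3*, −1.43 for *Inka2* and −0.68 for *Ddit4*. Genes of epithelia had −9.23 for *Padi1*, −5.87 for *Wfdc2*, −5.31 for *Slc14a1* and −3.21 for *Slc44a4*. *Nox1* had 2.55 and *Sohlh1* 0.88. The epithelial genes also varied between libraries of a group. In wild-type ovaries *Padi1* was at 0.0895 to 10.6 CPM without and 0.28 to 59.2 CPM with irradiation. *Wfdc2* was at 0.142 to 2.26 and 0.352 to 7.98 CPM there. The range was narrower for *Slc44a4*, at 0.404 to 0.889 and 0.841 to 2.81 CPM.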

How the results depend on the processing

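RLE normalization and a minimum of 1 count moved no result over its limit. The count of genes past adjusted p 0.05 and 2-fold (1) became 0 with the 12 *Chek2*-/- libraries alone and in limma-voom with sample weights, 3 with no minimum fold, 9 in DESeq2 on 24 and 11 on 12 libraries, and 0 to 1 with each library left out (0 without non-irradiated replicate 3 or irradiated replicate 4). The count at adjusted p 0.05 (3) became 1, *Ccng1*, with the 12 libraries alone, and 14 and 20 in DESeq2. No source ties equal replicate numbers to a shared litter or day. Same-numbered libraries had an r of 0.06 to 0.64, over 0.1 in 5 of 6 pairs, and 3 of 6 irradiated libraries were closest to their own number, a hint of pairing from the data that fell short of the rule that all pairs exceed 0.1. With a replicate block the counts were 4 and 10 in 24 libraries, *Gm37795*, *Exoc4*, *Phlda3* and *Gm43549* then being called (adjusted p 0.0211, 0.0211, 0.0231 and 0.0148), and 3 and 5 in the 12, where *Eda2r* (0.0586), *Ano3* (0.204), *Gm37795* (0.172), *Phlda3* (0.185) and *Gm43549* (0.185) were not called and *Ccng1*, *Exoc4* (0.0178), *Padi1* (0.028), *Ngp* (0.000299) and *Chil3* were. Genes at an unadjusted p under 0.05 (1179, 568 higher and 611 lower) were 605, 294 and 311 with filterByExpr, 724, 363 and 361 in DESeq2 on 24 libraries, and 677, 371 and 306 on 12. The lower count was 397 in limma-voom, 299 without replicate 6 of both groups and 376 to 755 with each library left out (376 without non-irradiated replicate 6). A further setting, chosen after seeing the data, left out irradiated replicate 2 as well, with 770 in all, 352 lower and 2 called, *Eda2r* not among them. The median of the wild-type induced list (0.09) was 0.12 without replicate 6 of both groups and 0.03 to 0.13 with each library left out. Sign changes arose for genes not called. Without replicate 6 of both groups *Dcxr* was at 0.05 and *Ifit3* at −0.34, and without irradiated replicate 2 as well *Dcxr* was at 0.02, *Ifit3* −0.32, *Mmp8* −0.20, *Fermt3* −0.16, *Ptprc* −0.24 and *Retnlg* −2.74. With sample weights *Trp73* was at −0.09. With each library left out the log2 fold change was −0.16 to 0.06 for *Nox1*, −1.19 to 1.16 for *Lhx3*, −0.16 to 0.18 for *Trp73*, −0.03 to 0.10 for *Padi6*, −0.20 to 0.76 for *Fermt3*, −0.12 to 1.86 for *Ptprc*, −2.69 to 7.70 for *Retnlg*, −0.26 to 7.99 for *Ltf*, −0.02 to 0.04 for *Mdm2*, −0.28 to 2.58 for *Ifit3* and −0.02 to 1.19 for *Irf7*. The cause was not tested. Genes under 1 CPM, such as *Ano3*, rest on few counts.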

Other observations

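*Hspg2*, which encodes the proteoglycan perlecan, was at 888, 952 and 1020 CPM (lowest, median and highest library) in non-irradiated and 1050, 1220 and 1540 CPM in irradiated *Chek2*-/- ovaries (log2 fold change 0.42, edgeR adjusted p = 0.614). *Lamc1*, the laminin gamma chain, was at 485, 513 and 540 CPM without and 546, 585 and 631 CPM with irradiation (0.19, edgeR unadjusted p = 0.00384). In both all 6 irradiated libraries were above the non-irradiated ones, and the wild-type changes were −0.03 and −0.02. The difference between genotypes was not past the threshold for *Hspg2* (edgeR adjusted p for the interaction = 0.383). In the *Chek2*-/- single-cell pair the ratios had the opposite direction, 0.917 for *Hspg2* and 0.908 for *Lamc1*. Both genes were picked after their values were seen. Other basement membrane genes overlapped between the groups, among them *Col4a1*, at 1100 to 1420 CPM without and 1260 to 1740 CPM with irradiation. Without non-irradiated replicate 6 alone *Col4a1* was higher at an unadjusted p under 0.05 in edgeR, and without replicate 6 of both groups it was not at that p.

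Other genes whose *Chek2*-/- groups did not overlap, with wild-type log2 fold changes near 0, were *Rgs9*, a regulator of G-protein signalling (3.18 to 3.83 CPM without and 3.98 to 6.48 CPM with irradiation), *Pla2g6*, a phospholipase (35.4 to 40.5 and 41.2 to 47.8 CPM), and *Mdn1*, a ribosome assembly factor (270 to 304 and 310 to 343 CPM). Lower without overlap were *Zfp367*, a transcription factor (24 to 28.3 and 20.9 to 23.8 CPM), *Nanp*, a phosphatase of sialic acid synthesis (3.6 to 6.03 and 1.08 to 3.48 CPM), and *Slc25a17*, a peroxisomal transporter (45.6 to 48.7 and 42.0 to 44.5 CPM). None of these 6 had an edgeR adjusted p of 0.05 or less. They were picked after their values were seen, from the genes without overlap. Those were 24 higher (0.0896% of genes tested) and 16 lower (0.0597%), and some genes separate by the order of the labels alone. In the *Chek2*-/- single-cell pair the ratios were 1.03 for *Rgs9*, 1.1 for *Pla2g6*, 1.08 for *Mdn1*, 1.03 for *Zfp367*, 1.0 for *Nanp* and 1.04 for *Slc25a17*, so that the genes lower in bulk were not lower there. DESeq2 on the 12 *Chek2*-/- libraries called *Hspg2*, *Lamc1*, *Mdn1* and *Nanp*, which DESeq2 on all 24 libraries did not.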
